A study of Drosophila melanogaster with 3 samples.

Results

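The genes described here are 7 genes of TOR signalling and translation control in Drosophila melanogaster, Lk6, larp, Thor, S6k, Tor, raptor and pAbp, out of 13945 protein-coding genes of the annotation. They were chosen by the signal of binding peaks that an earlier reading of these same data had shown at some of them, so their peaks are described here and not tested. Each gene was given every peak whose summit lay in the gene body or within 1000 bp of one of its transcription start sites (TSSs). That rule gave 39 of the 28940 peaks of the pooled list and 10 of the 2780 IDR peaks, those kept by the authors' filter on the irreproducible discovery rate between replicates.

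The data came from chromatin immunoprecipitation and sequencing of whole embryos, aged 0 to 24 h, males and females pooled, of the transgenic strain ets3-GFP. The line stably carries Ets65A, a transcription factor of the ETS family, with GFP fused to its C-terminus. GFP was precipitated, although the antibody field of the labels names Ets65A. There was 1 group with 3 biological replicates (1 technical replicate each), so nothing was compared between conditions. Whole embryos mix all cell types of a long span of development, and a peak does not tell in which cells the factor was bound. The labels name a control that was not analysed here.

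The TOR kinase senses insulin and nutrients and sets the rate of protein synthesis. It works in the complex TORC1 with raptor, which brings substrates to the kinase. TORC1 phosphorylates S6k, the kinase of ribosomal protein S6, and Thor, the Drosophila 4E-BP, which holds the cap-binding protein eIF4E inactive when TOR is low. The gene larp encodes a La-related RNA-binding protein whose mammalian relative LARP1 acts below mTORC1 on mRNAs of the translation machinery. Lk6 encodes the Drosophila relative of the Mnk kinases, which phosphorylates eIF4E, and pAbp encodes the poly(A)-binding protein that joins mRNA tails to the initiation complex. ETS factors recognise DNA around a GGAA core.

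Of the 7 genes, 4 had IDR peaks, larp with 5, Lk6 and pAbp with 2 each and Tor with 1, and 3 had none, Thor, S6k and raptor. Among all protein-coding genes 20.2% had an IDR summit by the same rule and 17.9% had one within 1000 bp of a TSS. All 7 had pooled peaks, as did 68.8% of protein-coding genes. Because peaks chose the genes, nothing is read from these shares. Signal values are those of the authors' peak caller, their scale is not stated, and they can be compared only within one list. In the IDR list they ran from 71.8 to 1498 with a median of 110.2, and in the pooled list, from which the IDR peaks are the strongest 2780, the median was 26.0.

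**Figure D1:**
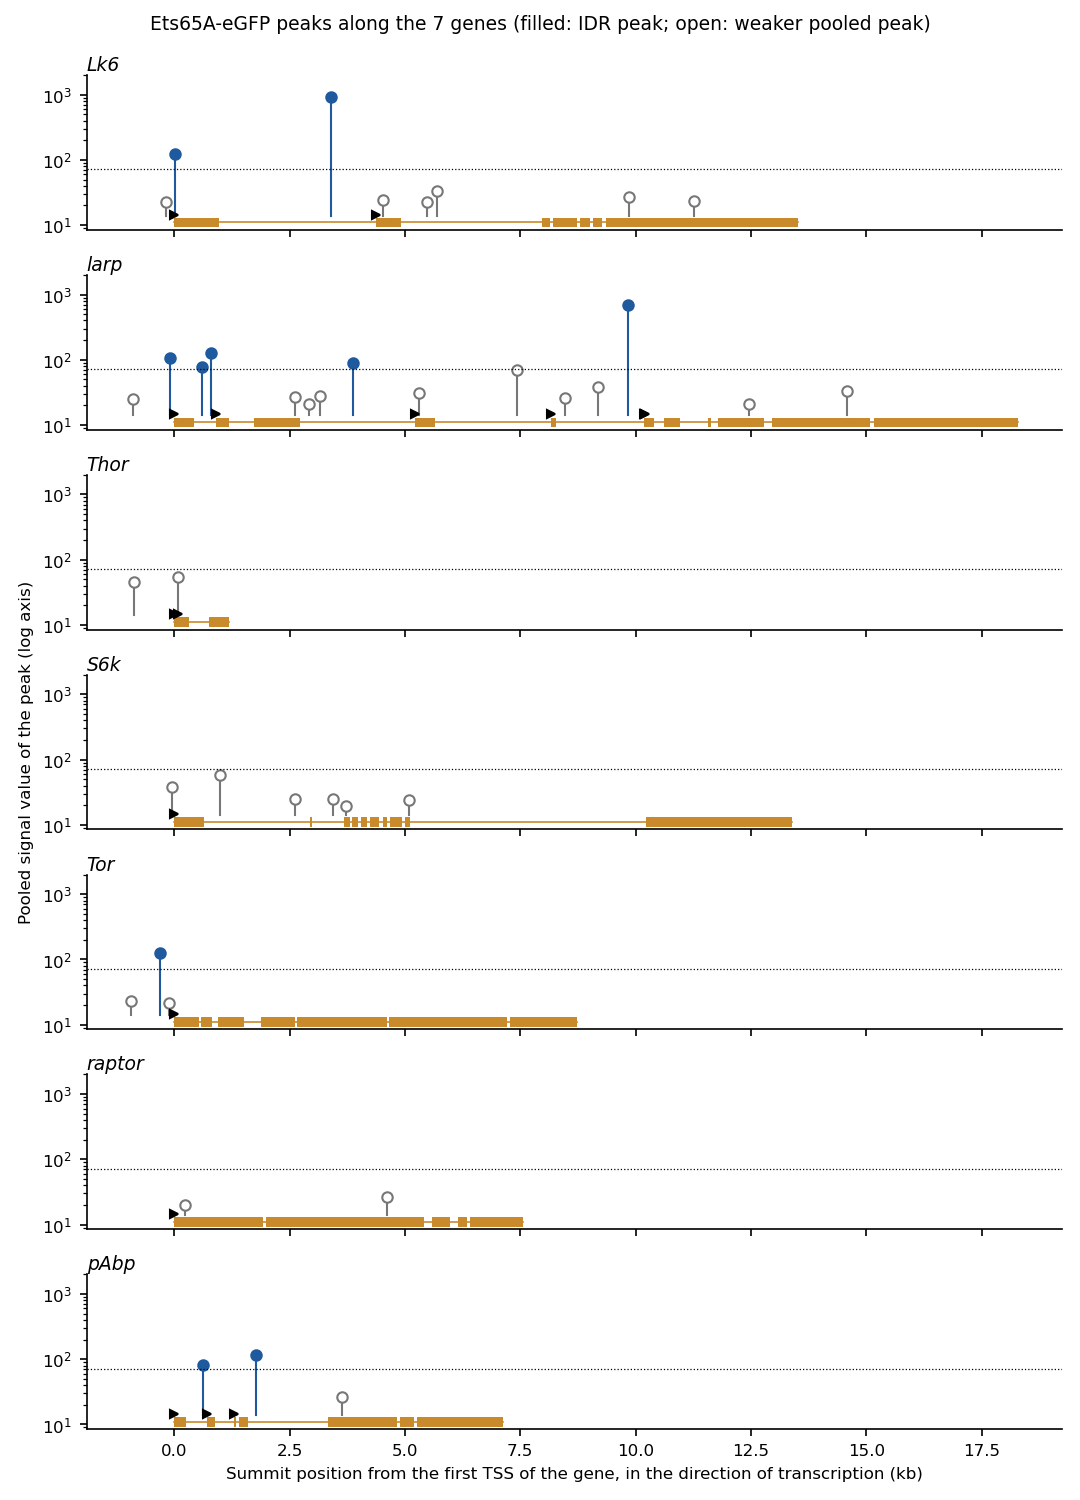
Pooled peaks along the 7 genes, with summit position in kb from the first TSS in the direction of transcription and pooled signal value on a log axis (filled, IDR peak; open, weaker peak; boxes, exons; triangles, TSSs; dotted line, the lowest IDR signal, 71.8). Lk6 and larp each have 1 peak far above the rest, at 912 and 699, and no peak of Thor, S6k or raptor reaches the line.

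The sequences shown here are the central windows of the peaks on which the description turns: the strongest Lk6 and larp peaks, the peak at the larp RG and RH start, and the Tor peak. All are from the RefSeq Release 6 genome (dm6), written 5′ to 3′ on the strand of the gene. Each spans 100 bp to either side of the summit, except that of Tor, which was cut to the part free of annotated exons. Capitals mark matches to the motifs named further on, on either strand.
Lk6, chr3R:11760953-11761153, minus strand: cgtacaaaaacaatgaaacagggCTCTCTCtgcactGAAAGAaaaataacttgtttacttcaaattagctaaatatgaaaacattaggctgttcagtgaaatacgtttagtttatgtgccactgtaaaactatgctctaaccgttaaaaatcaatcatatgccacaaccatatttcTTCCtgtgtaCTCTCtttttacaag
larp RA and RE, chr3R:28326499-28326699, minus strand: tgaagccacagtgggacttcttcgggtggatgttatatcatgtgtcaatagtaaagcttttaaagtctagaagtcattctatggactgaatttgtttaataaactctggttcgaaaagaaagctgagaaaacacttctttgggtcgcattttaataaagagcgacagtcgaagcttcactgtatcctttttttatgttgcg
larp RG and RH, chr3R:28335546-28335746, minus strand: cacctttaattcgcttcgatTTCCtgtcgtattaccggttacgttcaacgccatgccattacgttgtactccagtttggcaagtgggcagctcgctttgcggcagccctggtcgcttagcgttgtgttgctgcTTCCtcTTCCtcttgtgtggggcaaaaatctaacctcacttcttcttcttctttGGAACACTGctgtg
Tor, chr2L:13004108-13004267, plus strand: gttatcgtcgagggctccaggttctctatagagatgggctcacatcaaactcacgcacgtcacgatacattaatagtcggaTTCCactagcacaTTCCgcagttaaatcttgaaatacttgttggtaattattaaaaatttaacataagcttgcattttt

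Lk6 (FBgn0017581, 3R, 11750931 to 11764457, minus strand) carried the strongest peak of the 7 genes. It lay at 11760897 to 11761211 with its summit at 11761053, in intron 1 of 5 of transcript RA and 974 bp upstream of the start of the shorter transcript RB. Its pooled signal value was 912, rank 9 of the pooled list. The signal values of its own peak were 270.3, 360.1 and 281 in replicates 1, 2 and 3. In each of the 3 replicate lists of 30000 peaks it ranked 9, so its position among the peaks was the same although the signal value differed. Within 500 bp of a TSS Lk6 had only its other IDR peak.

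That peak lay at the start of RA, with its summit at 11764447, 10 bp downstream of the TSS in the 5′ UTR exon (exon 1 of 6). Its pooled signal value was 121, rank 1180. Replicate 1 gave 22.1 (rank 2255), replicate 2 gave 42.7 (rank 1487) and replicate 3 gave 52.6 (rank 777). The peak was among the strongest 2780 of each replicate, at a mean rank of 5.02% ± 2.46 (SD, n = 3) of the list from the top. The other 6 Lk6 peaks were weak, with pooled signal values from 22.7 to 33.6, and the one of 22.7, at 11764647, overlapped the same replicate peaks as the promoter peak, with a separate one of 25.9 in replicate 3. The nearest IDR peak beyond Lk6 was 22414 bp away, with a signal value of 157.

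The larp gene (FBgn0261618, 3R, 28318162 to 28336440, minus strand) had the most IDR peaks of the 7. It has 7 transcripts from 6 TSSs, named here by transcript from the 5′ end of the gene as RD, RG with RH, RF, RB, RA and RE. Of all protein-coding genes 20 (0.143%) had 5 or more IDR peaks, and the highest number was 10. One pair of larp peaks overlaps, which leaves 4 separate regions, and 44 genes had as many or more. The gene spans 18.3 kb, and of the 1122 genes at least as long 39.9% had 1 or more IDR peaks. The median TSS number over all protein-coding genes was 1. What part length or the number of TSSs has in the number of larp peaks was not tested. The genes were chosen by their peaks, so nothing is read from the place of larp in these counts.

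The strongest larp peak, at 28326433 to 28326754 with its summit at 28326599, lay at the most downstream pair of starts. The summit was 335 bp upstream of the RA start and 358 bp upstream of the RE start, inside introns of the 5 longer transcripts. Its pooled signal value was 699, rank 17. The replicates gave 201 (rank 22), 250.3 (rank 24) and 243 (rank 14), a mean rank of 0.0667% ± 0.0176 (SD, n = 3). All 3 replicates placed it among their strongest 24 peaks.

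At the RG and RH start, a peak with its summit at 28335646, 105 bp upstream, had a pooled signal value of 127 (rank 1067). The replicates gave 34.2 (rank 1087), 55.6 (rank 877) and 35.7 (rank 1724). The IDR peak next to it, at 28335848 with a pooled signal value of 78.2, overlapped those same replicate peaks. Matched by nearest summit instead, it had peaks of 19.1 (rank 2991) and 12.7 (rank 11473) in replicates 1 and 3, outside the strongest 2780 of either, and only the shared peak in replicate 2. At the RD start, the first of the gene, a peak 98 bp upstream (28336538, outside the gene) had 108 (rank 1454), and replicate values of 29.6 (rank 1392), 51.1 (rank 1055) and 24.2 (rank 3544). Replicate 3 thus left it out of its strongest 2780. That summit was also 351 bp from the start of the antisense RNA gene asRNA:CR46104.

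The fifth larp peak, at 28332566, lay in intron 2 of 6, 1348 bp upstream of the RF start, and is the only IDR peak of the 7 genes that was counted through the gene body alone. Its pooled signal value was 88.8 (rank 2018). Replicates 2 and 3 gave 37.6 (rank 1853) and 37.1 (rank 1594), whereas replicate 1 gave 12.7 (rank 9295). The mean rank of 14.2% ± 14.6 (SD, n = 3) was smaller than its own spread. The RF and RB starts had no IDR peak within 1000 bp. Their strongest pooled peaks had 31.3, found in replicate 3 alone, and 68.6 (28329012, 729 bp upstream of RB, rank 2996), just under the lowest IDR signal.

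Tor (FBgn0021796, named mTor in the annotation, 2L, 13004480 to 13013197, plus strand) had 1 IDR peak. Its summit at 13004167 was 313 bp upstream of the Tor start but 60 bp from the start of Vha68-1, a gene of the vacuolar proton pump that is transcribed the other way. To which gene the peak belongs cannot be told apart from position. The pooled signal value was 125 (rank 1098). The replicates gave 35.2 (rank 1045), 48.9 (rank 1159) and 36.7 (rank 1633), a mean rank of 4.26% ± 1.04 (SD, n = 3), and all 3 held it among their strongest 2780. The other pooled peaks before Tor had 21.5, overlapping the same replicate peaks, with a separate one of 15.9 in replicate 2, and 23.1, seen in replicate 3 alone.

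For pAbp (FBgn0265297, 2R, 18140078 to 18147191, plus strand), with starts RC, RA and RB, both IDR peaks lay in introns of its 5′ part. The stronger, with its summit at 18141854, was in intron 2 of 4, 479 bp downstream of the RB start, and had a pooled signal value of 116 (rank 1274). That summit was also 948 bp from the start of the snoRNA gene snoRNA:Psi18S-1347a. The replicates gave 26.9 (rank 1635), 47.6 (rank 1229) and 38.0 (rank 1505), a mean rank of 4.85% ± 0.691 (SD, n = 3). The weaker, at 18140699, was 78 bp upstream of the RA start in intron 1 of 4 of RC, with 81.0 (rank 2344). It had 21.4 (rank 2398) and 40.1 (rank 1651) in replicates 1 and 2 but 11.3 (rank 14273) in replicate 3, so 1 library did not place it among its strongest peaks. A further IDR peak with a signal value of 109 lay 851 bp beyond the 3′ end of pAbp and 6667 bp from its nearest TSS, outside the rule.

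**Figure D2:**
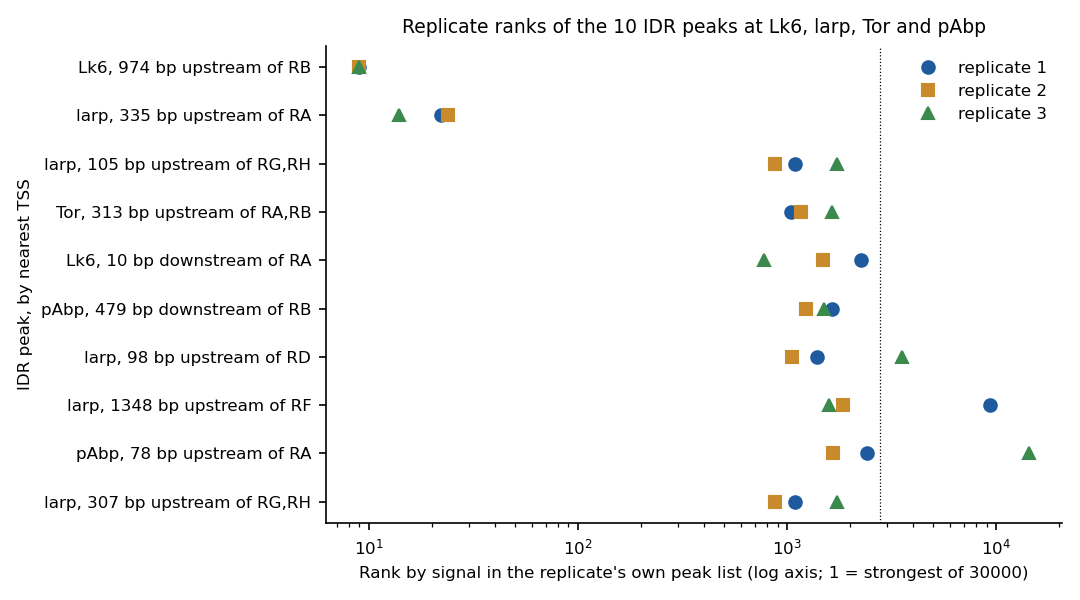
Rank of each of the 10 IDR peaks by signal value in the list of each replicate, on a log axis where 1 is the strongest of 30000 (circle, square and triangle, replicates 1, 2 and 3; dotted line, rank 2780). The strongest Lk6 and larp peaks sit at ranks 9 to 24 in all replicates, and the peaks of larp at 1348 bp and of pAbp at 78 bp have 1 replicate at 9295 and 14273. The overlapping larp peaks at 105 and 307 bp share their points.

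Of the 10 IDR peaks, 7 were among the strongest 2780 in all 3 replicates, counting both of the overlapping larp peaks, or 6 when summits had to lie within 100 bp. Of all 2780 IDR peaks 1650 (59.4%) were. The weakest replicate rank was 1.00 to 8.65 times the strongest for the 10 peaks, with a median of 1.97, and the median over all IDR peaks was 2.32. Replicate signals are not independent of the rule, because the pooled and IDR lists were made from the same libraries.

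The 3 genes without an IDR peak differed in how near they came to one. Thor (FBgn0261560, 2L, 3478434 to 3479612, plus strand), the shortest of the 7 at 1.18 kb, had a pooled peak at 3478510 between its starts, in the 5′ UTR exon, with a signal value of 53.5 (rank 4291, −log10 q of 2.76). Replicate 1 gave 10.1 (rank 17702), replicate 2 gave 33.1 (rank 2262) and replicate 3 had no peak there. A second peak lay 866 bp upstream at 3477568, inside the gene lncRNA:CR43928 and 717 bp from the start of that gene. It had 44.8 (rank 5555, −log10 q of 1.74) and was found in all 3 replicates, with 17.2 (rank 3767), 25.2 (rank 3514) and 31.2 (rank 2223). The summits of those replicate peaks, the strongest that overlapped it, lay 201 to 297 bp from the pooled summit, and the peaks nearest by summit had 10.1 (rank 18009), 24.0 (rank 3799) and 17.7 (rank 6215). An IDR peak with a signal value of 72.7 and its summit at 3477367 lay 1067 bp from the Thor start, just outside the 1000 bp of the rule. Counting any base of a peak in place of its summit brings that peak in, and the number of genes with an IDR peak becomes 5.

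S6k (FBgn0283472, 3L, 5797549 to 5810931, minus strand) had its strongest pooled peak at 5809936 in intron 1 of 9, 995 bp downstream of the start, with a signal value of 57.8 (rank 3828, −log10 q of 3.41). The replicates gave 10.9 (rank 14665), 25.1 (rank 3529) and 14.1 (rank 9508), and none held it among its strongest 2780. At the S6k start itself, a peak of 38.4 lay 49 bp upstream of S6k and 7 bp from the start of the neighbouring gene kri, with no peak in replicate 1. The other 4 S6k peaks had pooled signal values from 19.1 to 25.1.

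For raptor (FBgn0029840, X, 6082634 to 6090201, minus strand), both pooled peaks were weak. The one at 6085596, in coding exon 2 of 5, had 26.7 (rank 13693) and was found in replicate 1 alone. The one 234 bp downstream of the start (6089967) had 20.1 (rank 24121), with no peak in replicate 1 and ranks of 14366 and 13394 in replicates 2 and 3. Its summit lay 89 bp from the start of the antisense RNA gene asRNA:CR44959, and both raptor peaks also lay inside another gene, Mipp2. A stronger peak of 67.3 that did not pass IDR lay 1068 bp from the raptor TSS, just outside the rule. The nearest IDR peak was 7624 bp from raptor and 2343 bp from S6k.

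**Figure D3:**
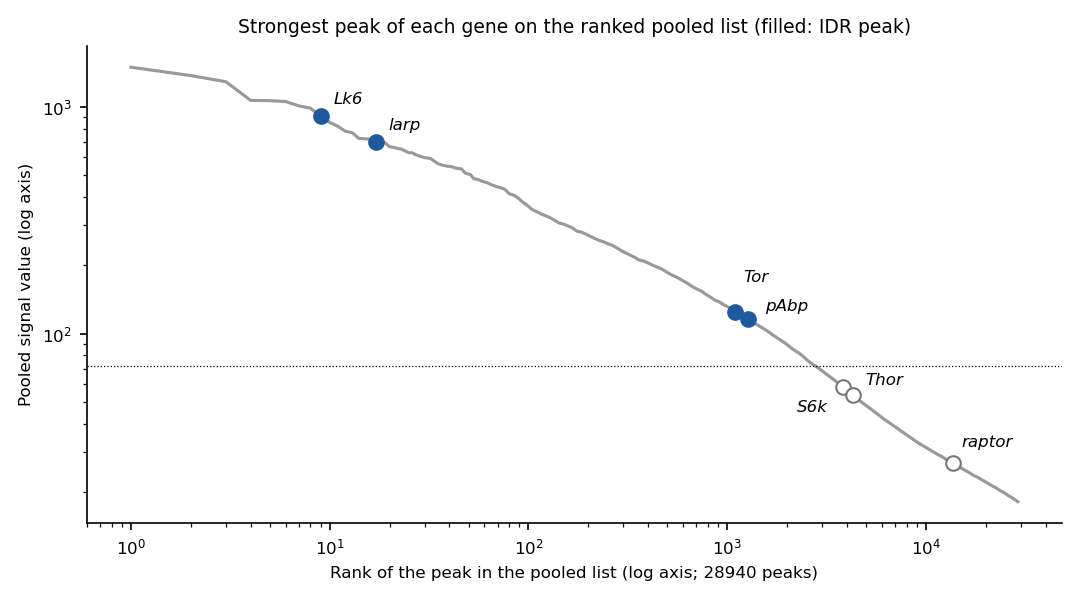
Strongest peak of each of the 7 genes on the curve of the pooled list, with rank of the peak and pooled signal value both on log axes (filled, IDR peak; open, no IDR peak; dotted line, the lowest IDR signal). Lk6 and larp lie at ranks 9 and 17, Tor and pAbp at 1098 and 1274, and S6k, Thor and raptor at 3828, 4291 and 13693.

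By position, 7 of the 10 IDR summits lay in introns of a transcript, 1 in a 5′ UTR exon and 2 outside the gene, and 8 of the 10 were upstream of the nearest start of the gene. Of 2475 IDR peaks assigned to a protein-coding gene by the same rule, 69.7% were upstream of the nearest TSS. Over all protein-coding genes, introns held 32.5% of the 3574 pairs of a gene and an IDR peak assigned to it. A further 57.4% lay outside the gene and 8.62% in 5′ UTR exons. All the intronic summits of the 7 genes except the larp one at 28332566 were also within 1000 bp of a TSS of the gene. No IDR summit of the 7 genes was in a coding exon, and 8 of their 29 weaker peaks were. Over all protein-coding genes coding exons held 0.252% of the pairs with an IDR peak and 18.8% of the 25995 pairs with a weaker one, so the contrast is a general one in these lists. Of the 29 weaker peaks, 3, 1 each at larp, Thor and S6k, had a −log10 q of 2 or more, and 6 overlapped a peak in every replicate. Of all 26160 weaker pooled peaks 8.94% had such a q-value and 22.1% overlapped a peak in every replicate, shares close to those at the 7 genes. The strongest Lk6 and larp peaks were 315 and 322 bp wide, narrower than the 390 bp of 82.1% of IDR peaks. That was usual among the strongest peaks, since 93 of the 100 IDR peaks of highest signal were narrower.

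The IDR peaks whose replicate signals were most like those of the strongest Lk6 peak had as their nearest protein-coding TSS those of PNPase, a mitochondrial RNA-degrading enzyme (76 bp away), CG32772 (1273 bp) and ph-p, a Polycomb group gene (487 bp). Their largest log2 signal differences from Lk6 over the 3 replicates were 0.14, 0.14 and 0.27. The PNPase peak had 282, 396 and 311 in replicates 1, 2 and 3. For larp the most alike had as nearest TSS those of CG9663 (939 bp away), CG7601 (98 bp) and tara (3152 bp), with largest log2 differences of 0.11, 0.15 and 0.22, and the CG9663 peak had 209, 269.5 and 236. The scale of signal differed between libraries: the signal value at rank 2780 was 19.9, 29.2 and 27.7 in replicates 1, 2 and 3.

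Of 12 motifs sought on both strands within 100 bp of the 10 IDR summits, the ETS site CCGGAA was found at none, against 5.61% of all IDR peaks and 7.48% of weaker pooled peaks. The longer ETS site CCGGAAGT was also at none (0.719% of all IDR peaks). The bare core GGAA, which both of those contain, was at 7 of the 10 peaks and at 75.9% of all IDR peaks. The strongest Lk6 window holds 1 such core, 76 bp from the summit and written TTCC in the printed sequence, and the strongest larp window holds none of the 12 motifs. The peak at the larp RG and RH start holds 4 GGAA cores, the last of them sharing a base with ACACTG.

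The DRE (TATCGATA), bound by Dref, the M1BP element (GGTCACAC) and the Zelda site (CAGGTAG) were at none of the 10 peaks, against 5.83%, 3.88% and 1.01% of all IDR peaks. CGATAG, which overlaps the DRE, was at the larp RD and the Tor peak (14.6% of all IDR peaks), in the Tor window in the part not printed. ACACTG was at 1 (23.1%). CGATAG and ACACTG were included because an earlier scan of these same peaks had found them frequent. The GAGA site (GAGAG) was at 2 peaks, among them the strongest Lk6 peak, where it appears as CTCTC (22.6% of all IDR peaks). TCTTTC, similar to the pyrimidine initiator of translation genes, was at 3 peaks (13.5%), and TATAAA (29.6%) and CAGCTG (11.2%) were at 1 each, both at the larp peak at 28335848. The GC content of the strongest Lk6 and larp windows was 33.3% and 37.3%, and the mean over all IDR peaks was 37.8%.

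To set the 7 genes in their pathway, 63 genes of TOR signalling and translation control, the 7 included, were grouped by role. Of these, 22 (34.9%) had an IDR summit within 1000 bp of a TSS, and without the 7 genes 18 of 56 (32.1%), against the 17.9% of all protein-coding genes given above. The 7 genes were chosen by their peaks, and the list was drawn up with earlier results of these data known. Nothing is therefore read from these shares or from the counts below. The 56 genes had a median length of 5.23 kb against 2.17 kb for all genes, and of the 3360 genes at least as long as that median 25.0% had such a summit. What part gene length has in the share was not tested. The median of the strongest signal values was 118 for the 18 genes and 116 for all 2503 genes with such a peak. Another rule counted pooled peaks among the strongest of both remaining replicates, whether or not they passed IDR. By it 16, 14 and 17 of the 63 genes had one without replicate 1, 2 and 3, and 13.4%, 12.3% and 13.3% of all protein-coding genes did.

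Among the subunits of TORC1 and TORC2, 1 of 5 genes had an IDR peak, namely Tor. Of 7 genes of the insulin and PI3K branch 4 had one: the kinase adaptor gene Pi3K21B (269, summit 22 bp from the TSS), the insulin receptor gene InR (156), the PI3K catalytic gene Pi3K92E (92.4) and the receptor substrate gene chico (82.5). The chico peak was missing from replicate 1 and ranked 2993 and 1549 in replicates 2 and 3. Those of Pi3K21B, InR and Pi3K92E were found in every replicate. Of 10 genes that carry TSC, Rheb, energy and stress inputs 6 had an IDR peak. The strongest were at Sesn, the sestrin gene (351), and at alc, the beta subunit of AMPK (342), although the alc summit was 934 bp from its TSS. SNF4Agamma, the gamma subunit of AMPK, had 133, and a stronger IDR peak of 155 in the gene body, over 1000 bp from a TSS. The AMPK-activating kinase gene Lkb1 had 104, and Rheb, the GTPase that activates TORC1, had 88.3. The TORC1 inhibitor gene scyl had 84.1. The scyl peak ranked 22846, 3078 and 827 in replicates 1, 2 and 3. Among the other strongest peaks of these input genes within 1000 bp of a TSS, the weakest replicate rank was 3505, at Rheb in replicate 3.

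Of 12 genes of amino acid sensing through Rag GTPases and GATOR, 2 had an IDR peak, Wdr24 (137) and RagA-B (76.7), both shared with a neighbouring gene. The RagA-B peak ranked 3498, 1757 and 6910 in replicates 1, 2 and 3, and that of Wdr24 606, 1313 and 1331. Of 11 genes grouped in the list as TOR outputs 5 had an IDR peak: larp, REPTOR, PRAS40, Tctp and RpS6. REPTOR, a transcription factor held back by TORC1, had 285, and RpS6, the substrate of S6k, had 74.2. The RpS6 peak ranked 18983, 1512 and 2047 in replicates 1, 2 and 3. PRAS40 had 136, with its summit 993 bp from the TSS, and Tctp had 88.3. Tctp also had a stronger IDR peak of 155 in the gene body, over 1000 bp from a TSS. For the strongest peaks of larp, REPTOR, PRAS40 and Tctp within 1000 bp of a TSS, the weakest replicate rank was 3594, at Tctp in replicate 1. The group is a label of the list and does not place PRAS40 or Tctp below TOR. Of 13 genes of cap-dependent initiation and its regulators 3 had one: Lk6, pAbp and 4EHP (191), whose product competes with eIF4E for the cap. Of 5 genes of the integrated stress response only crc, the Drosophila ATF4, had one (83.8, 776 bp from its TSS). The crc peak ranked 1408, 3736 and 3199 in replicates 1, 2 and 3. Peaks with TSSs of other protein-coding genes within 1000 bp cannot be given to one gene, as for Tor. The same held for Sesn, alc, Lkb1, Rheb, Tctp, RpS6, 4EHP and crc. With the gene body counted too, 24 of the 63 had an IDR peak, and 20.2% of all protein-coding genes did.

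**Figure D4:**
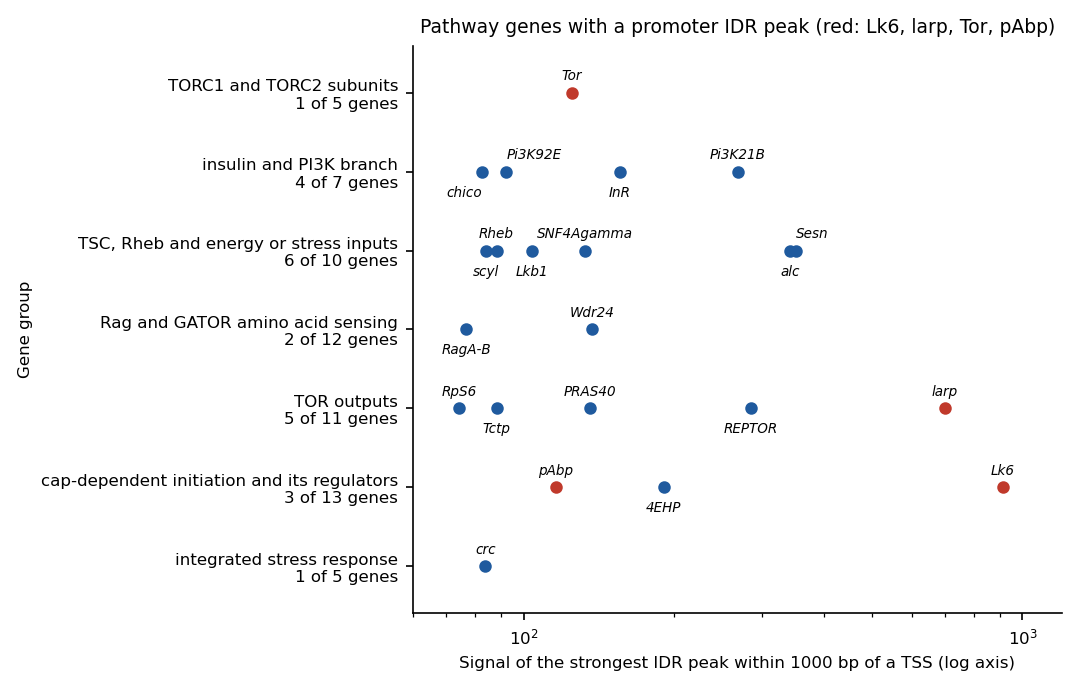
Highest IDR signal value (log axis) near a TSS, at most 1000 bp away, for the 22 of 63 pathway genes that had one, by role (red, the 4 genes of the 7). Lk6 at 912 and larp at 699 stand above the next gene, Sesn at 351. The 7 genes were chosen by their peaks, so nothing is read from this order. The Lk6 summit was 974 bp from its TSS.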

How the data were processed

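Chromatin immunoprecipitation of GFP was sequenced in 3 biological replicates of 1 group. The deposited dm6 peak lists give a signal value per peak and a q-value as −log10 q, both made by the authors. Per the submitters' readme, each replicate list was called on its alignment against a control, the pooled list on the 3 alignments together against a control, and the IDR list was derived from these. The sources used here do not name the aligner, the peak caller or the IDR threshold. Peak lists hold no read counts, so depth is unknown and no counting interval can be given. The dm3 lists were not used.

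The members, gene lists and motifs were chosen with earlier results of these data known. Peaks were assigned by summit to Ensembl release 115 genes (BDGP6.54, the dm6 sequence). Tor and 4EHP, 2 symbols of the 63 pathway genes, were matched through RefSeq synonyms. Peaks were ranked by signal in each list. A replicate peak was matched by an overlap of at least 1 bp, the strongest taken, and a replicate supported a peak when it was among the strongest 2780 of its list. Named genes were the 7 members, every pathway gene with an IDR summit within 1000 bp of a TSS, and neighbours with a TSS that near to a member peak described here. Mipp2 was named because it holds both raptor peaks. The 3 peaks most like those of Lk6 and of larp were also named, by the smallest of the largest absolute log2 signal differences over the replicates. A further gene first placed in the pathway list is not reported here and is in none of the counts of that list. No test was run. Alternatives changed the TSS distance, the summit, the signal or q threshold, the overlap, the number of top peaks, the motif window and the replicates used. Python 3.11.15, pandas 2.3.3, numpy 2.4.6 and matplotlib 3.10.9 were used, and the functions for assignment, overlap, features and motifs were tested on simulated data.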

Additional observations from a re-analysis of the deposited data

How the results depend on the processing

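Of 84 alternatives, 73 left the value within 1.5 times, or within its spread, and 11 moved it. The number of genes with an IDR peak was 3 to 5 under the alternatives that kept all replicates. The 10 IDR peaks became 4 within 250 bp of a TSS and 6 in the stronger part of the IDR list. With a replicate left out, pooled peaks among the strongest of both other replicates were counted, whether or not they passed IDR. The pooled list itself still rested on all 3 replicates. Each time 4 genes had such peaks, 9 to 11 in number, which included weaker peaks of Lk6 and Tor. The count of these peaks was added once the data had been seen. The 39 pooled peaks became 23, 16 and 11 within 1000, 500 and 250 bp of a TSS and 13 at a −log10 q of 2 or more. The 7 supported peaks became 2 when only the stronger part of each top list counted. They were 7 to 9 with a replicate left out, a change that could only keep or raise the count. The median over the 10 peaks of the mean rank was 4.56%, and 3.88% to 4.87% with a replicate left out. The 22 pathway genes became 13 in the stronger part of the IDR list, for which no share of all genes is given here. By the pooled peaks used with a replicate left out they were 14 to 17, where the lists hold fewer peaks (2090 to 2366). CCGGAA was at 1 of the 10 peaks with 200 bp to each side, and at 0 with 100 and 50. The mean rank of the larp peak at 28335848 was 17.0% when matched by nearest summit.

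The depth of each library is unknown, and the control was not analysed here. Groups of 3 are too small for a check of single outlying samples.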
